A study of Homo sapiens with 6 samples.

Results

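The subject is a group of 10 epithelial keratin genes in PC9 cells, a human lung adenocarcinoma line driven by an activating EGFR deletion. They are KRT13, KRT4, KRT5, KRT7, KRT8, KRT15, KRT17, KRT18, KRT19 and KRT80, taken by symbol from a table of 16306 genes, and all 10 have a row in it. The members were chosen by their counts in the sh-NC against shRBM10 contrast of these same libraries, among other known results, so their differences between the groups are described below without a test. RNA-seq libraries came from PC9 cells carrying a control shRNA (sh-NC, 3 samples) and PC9 cells carrying an shRNA against RBM10, an RNA-binding splicing regulator (shRBM10, 3 samples). No source used here ties an RBM10 shRNA to a library. The 3 shRBM10 columns share one stem in their names, while the titles of the 3 samples carry different numbers whose meaning is not given. It is also not given whether the samples of a group came from separate cultures, and any error quoted covers the spread between these samples only. The shRBM10 libraries are called A, B and C, because column names tie only library A to a replicate number (1).

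Keratins are the intermediate filament proteins of epithelial cells. Each filament is built from obligate pairs of a type I (acidic) and a type II (basic or neutral) keratin, and an unpaired keratin is degraded. Simple, single-layered epithelia and the adenocarcinomas that arise from them make KRT8 and KRT7 (type II) with KRT18 and KRT19 (type I). Basal cells of stratified and airway epithelium make KRT5 and KRT15, KRT17 marks basal cells and wounded or stressed epithelium, and the suprabasal layers of internal mucosa, such as the oesophagus, make the pair KRT4 and KRT13. KRT80 is a type II keratin of filaments that lie close to the desmosomes. Antibodies to KRT7 and KRT18 are in routine use to recognise adenocarcinoma cells.

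The members include 5 type I and 5 type II genes. On GRCh38 (GENCODE v29) 6 of them lie in the type II keratin cluster on chromosome 12, and 4 lie in the type I cluster on chromosome 17. On chromosome 12 these are KRT80 (chr12:52168996-52192000, minus strand), KRT7 (chr12:52232520-52252186, plus strand), KRT5 (chr12:52514575-52520687, minus strand), KRT4 (chr12:52806549-52814551, minus strand), KRT8 (chr12:52897187-52949954, minus strand) and KRT18 (chr12:52948871-52952901, plus strand). KRT18 is thus the type I gene that sits inside the type II cluster, and its annotated span overlaps that of KRT8 on the opposite strand by 1084 bases. On chromosome 17, all on the minus strand, are KRT13 (chr17:41500981-41505705), KRT15 (chr17:41513743-41522529), KRT19 (chr17:41523617-41528308) and KRT17 (chr17:41619441-41624842). KRT13 and KRT15 are neighbours, with 8037 bases between them, and KRT15 and KRT19 are 1087 bases apart. KRT7 and KRT86 overlap by 2887 bases on the same strand. How the counting used strand and overlaps is not given in the sources used here.

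Keratin genes arose by duplication, and short reads can be shared between copies. For most members the stretches found in another gene are a small part of the transcript (GENCODE v29). Of all windows of 50 bases along the KRT13 transcript, 1.03% were found in another gene, all of them in KRT15. The share was 0.328% for KRT15, 0.42% for KRT80, 0.997% for KRT7, 1.79% for KRT19 and 3.99% for KRT5, whose matches were in KRT6A, KRT6B and KRT6C, and it was 0 for KRT4. KRT8 (37.1%) and KRT18 (31.8%) stood out, with matches in 33 and 43 pseudogenes, and KRT17 followed at 17.4%, with matches in KRT14, KRT16 and 4 pseudogenes. GENCODE v29 holds 50 KRT8 and 67 KRT18 pseudogenes, none of which has a row in the table. Counts of KRT8, KRT18 and KRT17 are therefore less certain than those of the other members, since the handling of reads with several matches is not given in the sources used here.

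Library totals ran from 18181904 to 18864243 counts for sh-NC and from 16606390 to 18526148 counts for shRBM10. RBM10 itself, the targeted gene, had 1578, 863.5 and 1628 counts in the sh-NC libraries and 523.2, 536.6 and 700.4 in those of shRBM10, lower in every shRBM10 library (log2 fold change −1.24 ± 0.23 SE, edgeR quasi-likelihood adjusted p = 0.1). The TMM scaling factor was 0.738 in sh-NC replicate 2 and 1.03 to 1.08 in the other 5 libraries, so that replicate stands apart. The shRBM10 group was not uniform either. Across genes, log2 normalized counts of library C were closer to sh-NC replicates 1 and 3 (Pearson r 0.982 each) than to libraries A (0.947) and B (0.969). Across genes, the level relative to the mean of the libraries rose with GC content in the 3 sh-NC libraries and in library C (Pearson r 0.37 to 0.45) and fell with it in libraries A and B (r −0.70 and −0.63). All 10 members lie above the median GC content of the genes tested (53.4% to 62.9% against 49.3%). Log2 fold changes without sh-NC replicate 2 and with each library's GC trend removed are therefore given for each member tested and for the other keratins and partner genes past the limits used. Lung lineage markers were near 0 (NKX2-1 0 to 2 counts, SFTPB 0 to 3.15, SFTPC 0 to 1, NAPSA 9 to 17), while the epithelial markers EPCAM (4561 to 6566) and CDH1 (1224 to 4373) were high. The protocol text of the samples speaks of retinas. Of 8 retina markers 4 had a row, PDE6B (0 to 1 counts), CRX (0 to 3.22), PDE6A (7 to 33) and NRL (64 to 115), and their summed normalized count was 96.6 to 167 in sh-NC and 78.8 to 101.8 in shRBM10.

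The keratin content of PC9 cells was that of a simple epithelium. In TPM, an abundance scale that accounts for transcript length and depth and so allows genes to be compared, KRT8 reached 11059 ± 466.5 in sh-NC (SD, n = 3, as for the levels that follow), rank 9 of all genes. KRT18, its usual partner, followed at 9345 ± 965.6 TPM, rank 12. KRT7 stood at 5459 ± 519.9 TPM and KRT19 at 3522 ± 214.6 TPM. The sh-NC replicates of these 4 genes did not overlap one another, so their order was clear within the group. Together KRT7, KRT8, KRT18 and KRT19 made up 98.33% to 99.11% of all member counts in the 6 libraries.

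The remaining members were far below. KRT80 had 124.7 ± 49.7 TPM. KRT15 (37.4 ± 3.64 TPM) and KRT17 (33.8 ± 4.87 TPM) did not differ beyond their spread. KRT13, the mucosal type I keratin, had only 2.83 ± 0.157 TPM (rank 8920), KRT5 1.1 ± 0.28 TPM and KRT4, the mucosal type II keratin, 0.19 ± 0.114 TPM. The basal and mucosal keratins on which the fold changes are largest are thus trace transcripts in this line. In library A, the only shRBM10 library whose TPM column was used, KRT13 had 0.47, KRT5 0.35 and KRT4 0.04 TPM against 8166 for KRT8, and KRT17 (43.7 TPM) stood above KRT15 (31.9 TPM). Vimentin, the mesenchymal intermediate filament protein, was also low in sh-NC at 1.24 ± 0.479 TPM.

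**Figure D1:**
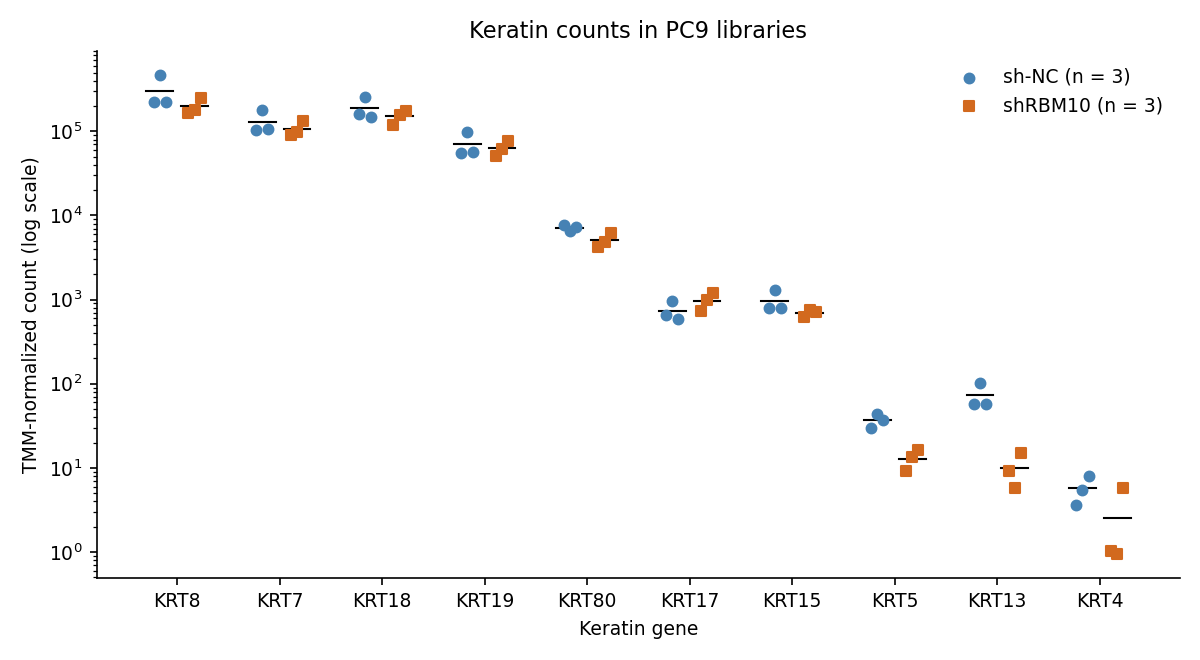
TMM-normalized counts (log scale) of the 10 keratins in each sh-NC library (blue circles) and shRBM10 library (orange squares), with a line at each group mean (n = 3). KRT13 and KRT5 separate completely, at 57.3 to 103.2 against 5.7 to 15.2 and at 29.7 to 43.4 against 9.16 to 16.2, while the abundant KRT8, KRT7, KRT18 and KRT19 overlap.

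KRT13 showed the largest difference of the group. The control libraries (replicates 1 to 3) held 64, 76 and 64 counts of KRT13, and libraries A, B and C held 9, 6 and 16. Every shRBM10 library was below every sh-NC library. After TMM normalization the mean was 72.7 ± 26.4 in sh-NC and 10 ± 4.83 in shRBM10 (SD, n = 3 per group, as for all normalized counts below), a log2 fold change of −2.83 ± 0.45 (SE), or 7.11-fold lower. Only 3 of the 12620 genes tested (0.0238%), KRT13 included, had a log2 fold change as low. Because KRT13 was picked with this contrast in view, nothing is read from that rank. Libraries A and B have under 10 counts, so KRT13 reached the test through its sh-NC libraries, and a filter asking for 10 counts in every library removes it. Its log2 fold change was −2.58 without sh-NC replicate 2 and −2.60 with the GC trend removed, and from −3.30 to −2.55 over all alternatives that could test it.

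KRT4, the type II partner of KRT13 in mucosa, was barely detected. Its counts were 4, 4 and 9 in sh-NC and 1, 1 and 6 in shRBM10, 17 against 8 over 3 libraries each. All 6 libraries were under 10 counts, the groups overlapped and the gene did not pass the filter on low counts. A difference in KRT4 was not detectable at this depth, and no fold is given.

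KRT5 is the type II keratin of basal cells. Its counts were 33, 32.2 and 41 in sh-NC and 9, 14 and 17 in shRBM10, and no shRBM10 library reached the lowest sh-NC library. Normalized counts went from 36.6 ± 6.89 to 12.9 ± 3.53, a log2 fold change of −1.49 ± 0.36 (SE), 2.8-fold lower. Of the genes tested, 44 (0.349%), KRT5 included, had a log2 fold change as low. KRT5 too was picked with this contrast in view, and the rank is only a description. One library (A) was under 10 counts, so KRT5, like KRT13, is removed by the filter of 10 counts in every library. Its log2 fold change was −1.43 without sh-NC replicate 2 and −1.28 with the GC trend removed.

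The other basal keratins, KRT15 and KRT17, lay on opposite sides of 0. KRT15 had 873, 958 and 882 counts in the sh-NC libraries and 617, 803 and 751 in shRBM10. The groups did not overlap, with normalized counts of 958.2 ± 296.5 and 702 ± 68.4 and a log2 fold change of −0.45 ± 0.27 (SE). It was −0.25 without sh-NC replicate 2 and −0.23 with the GC trend removed. KRT17 had 727, 704 and 654 counts in the sh-NC libraries and 718, 1031 and 1258 in shRBM10. Library A lay inside the sh-NC range and libraries B and C lay above it in counts. Its normalized counts were 731.5 ± 197.2 and 969.4 ± 233.8, with a log2 fold change of +0.41 ± 0.28 (SE), which made KRT17 the only member with a higher value in shRBM10 after TMM normalization. It was +0.57 without sh-NC replicate 2, +0.70 with the GC trend removed and +0.20 without library C.

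Set against each other within a library, where depth and scaling cancel, these basal keratins gave the clearest contrast among the pairs examined. The KRT17 to KRT15 ratio of counts was 0.833, 0.735 and 0.741 in sh-NC and 1.16, 1.28 and 1.68 in shRBM10, a mean of 0.77 ± 0.0547 against 1.37 ± 0.267. KRT15 thus had the more counts of the pair in every sh-NC library and KRT17 in every shRBM10 library. Counts are not scaled to transcript length, so they do not rank these genes by abundance. The ratio of the means was 1.79. KRT17 against KRT16, the stress-associated keratin with which KRT17 shares sequence, went from 0.418 ± 0.0467 to 0.572 ± 0.0721, again with no overlap. Because KRT15 and KRT17 were picked with this contrast in view, the ratios are a description.

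**Figure D2:**
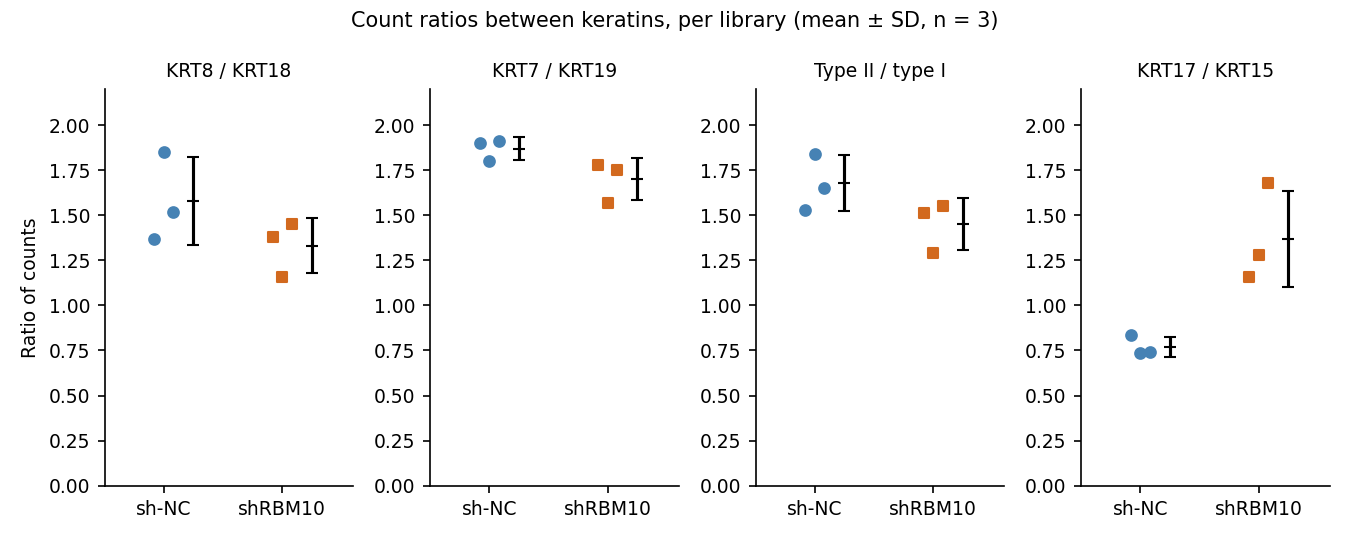
Ratios of counts between keratins in each library (points) with mean ± SD (n = 3 per group) for KRT8 over KRT18, KRT7 over KRT19, type II over type I members and KRT17 over KRT15. The KRT17 over KRT15 ratio lies at 0.735 to 0.833 in sh-NC and at 1.16 to 1.68 in shRBM10, while the KRT8 over KRT18 ratio overlaps.

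KRT80 had 8501, 4852 and 8224 counts in the sh-NC libraries and 4179, 5116 and 6472 in shRBM10. The raw counts overlapped because of sh-NC replicate 2, whereas the normalized counts (7644, 6587 and 7358 against 4253, 4860 and 6163) did not. The log2 fold change was −0.50 ± 0.24 (SE), with means of 7196 ± 546.5 and 5092 ± 975.9. It was −0.64 without sh-NC replicate 2 and −0.30 with the GC trend removed. KRT80 transcripts divided in much the same way in both groups. NM_182507 took 70.4%, 75.5% and 74% of its transcript counts in the sh-NC libraries and 68.1%, 70.9% and 69.9% in shRBM10, and NM_001081492 nearly all the rest.

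The abundant simple keratins overlapped between the groups. KRT8 had 245476, 347195 and 251612 counts in the sh-NC libraries and 162988, 191302 and 264954 in shRBM10 (log2 fold change −0.61 ± 0.45 SE). KRT18 had 178532, 187719 and 165348 against 118320, 165446 and 183194 (−0.32 ± 0.38). Library C reached the counts of the sh-NC libraries for both genes, and libraries A and B were lower or near their lower end. KRT7 had 116839, 130919 and 120035 counts against 89342, 103158 and 139766 (−0.28 ± 0.37). KRT19 had 61430, 72843 and 62857 against 50062, 65728 and 79970 (−0.15 ± 0.36). None of these differences exceeded the spread between libraries.

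Much of that spread lay in sh-NC replicate 2. Its normalized counts were the highest of all 6 libraries for these 4 genes, for example 471354 for KRT8 against 220721 and 225111 in the other sh-NC libraries. Without it the log2 fold change was −0.24 for KRT8, −0.11 for KRT18, −0.06 for KRT7 and +0.10 for KRT19. With the GC trend removed it was −0.49, −0.10, +0.04 and +0.15 in the same order. The direction for KRT7 and KRT19 was therefore not settled by these libraries.

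**Figure D3:**
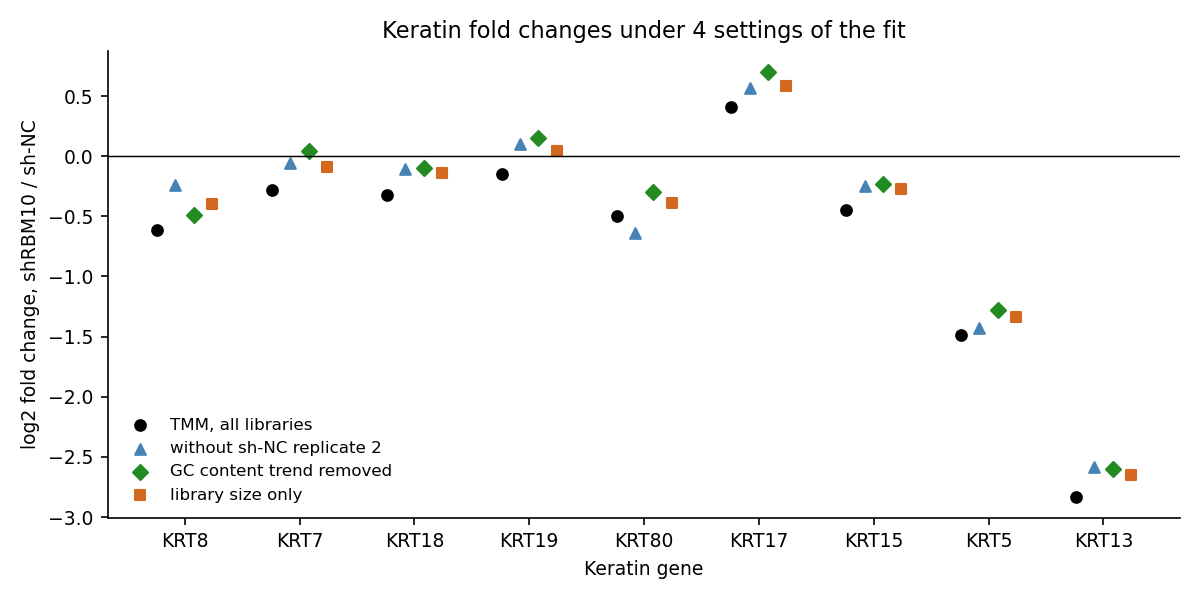
Log2 fold change (shRBM10 over sh-NC) of the 9 keratins that could be tested, with TMM and all libraries (black circles), without sh-NC replicate 2 (blue triangles), with each library's GC trend removed (green diamonds) and scaled by library size only (orange squares). KRT13 stays between −2.83 and −2.58 and KRT5 between −1.49 and −1.28 in these 4 settings, KRT17 is above 0 in each, and KRT7 and KRT19 cross 0.

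The ratios of type II to type I keratins had lower means in shRBM10, with groups that overlapped or lay close. Type II members over type I members gave a count ratio of 1.53, 1.84 and 1.65 in sh-NC and 1.51, 1.29 and 1.55 in shRBM10 (1.68 ± 0.155 and 1.45 ± 0.143), with an overlap. KRT8 over KRT18 was 1.37, 1.85 and 1.52 against 1.38, 1.16 and 1.45 (1.58 ± 0.243 and 1.33 ± 0.152), also overlapping. KRT7 over KRT19 was 1.9, 1.8 and 1.91 in sh-NC and 1.78, 1.57 and 1.75 in shRBM10. That ratio did not overlap, although its means of 1.87 ± 0.0628 and 1.7 ± 0.115 are close. The 4 simple keratins took 3.18% to 4.06% of all counts in the sh-NC libraries and 2.53% to 3.61% in shRBM10.

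At the level of transcripts, each member was counted nearly entirely on 1 form, apart from KRT80. KRT4, KRT5, KRT17 and KRT19 have a single transcript in the table, and KRT7, KRT8 and KRT18 placed 99% or more of their counts on NM_005556, NM_002273 and NM_000224. KRT15 placed 94.4% to 97.8% on NM_002275. KRT13 was counted on NM_153490 in 5 libraries, and in sh-NC replicate 3 another 18.1% (11.6 estimated counts) went to NM_002274. With no more than 16 counts per shRBM10 library, KRT13 transcript use could not be compared.

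Taken as counts, 8 of the 9 members tested had a lower value in shRBM10, where 48.4% of all genes tested did, and 4 (KRT13, KRT5, KRT15 and KRT80) did not overlap in that direction, as for 16.2% of all genes (30.1% in either direction). Because the members were picked with this contrast in view, nothing is read from these shares. With fewer cells or less RNA per cell indistinguishable in bulk libraries, these values are shares of the RNA sequenced.

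Correlations between members over the 6 libraries are a description, since all points share the same libraries, their scaling and their base composition. The log2 normalized counts of KRT13 ran closest to those of KRT5 (Pearson r 0.95) and KRT80 (0.84). Values for KRT4 (0.77), KRT8 (0.74) and KRT15 (0.72) were close to one another, and KRT4 was under 10 counts in all 6 libraries. With KRT17 the r was weakly negative (−0.36). The simple keratins ran together, with r of 0.98 for KRT7 and KRT8, 0.95 for KRT8 and KRT18 and 0.96 for KRT7 and KRT19. Among all genes with a mean normalized count of at least 50, the 5 nearest to KRT13 were UBFD1 (0.9979), PLCXD1 (0.9965), IL11, a secreted cytokine, YRDC and TRIM35. IL11 went from 1322 to 514 normalized counts (log2 fold change −1.36). A value of r over 0.95 was reached by 264 of 11055 genes (2.39%) with KRT13 and by 678 of 11054 genes (6.13%) with KRT8, whose nearest were ABHD17A, STX5, FDPS, RPN1 and TMEM125.

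The table holds 28 keratin genes beside the members. Of these 28, 15 had at most 3 counts in every library, and 10 passed the filter and were tested. All 10 had a lower value in shRBM10, and their log2 fold changes had a median of −0.62 against 0.03 for all genes tested. KRT3 (6, 17 and 20 counts in shRBM10) and KRT83 (7, 17 and 6) reached the test through their sh-NC libraries. The filter thus favoured a lower value for both, and the median is a description. The direction was not fixed for keratins close to 0: KRT16, KRT6B and KRT86 turned positive when scaled by library size only, and these 3 and KRT14 did so with the GC trend removed. KRT3, KRT78 and KRT6A combined an unadjusted p under 0.05, an absolute log2 fold change past 1 and no overlap between the groups. By p and fold change alone, without the condition on overlap, these 3 of 10 compare with 1.53% of all genes tested in that direction. KRT3 alone was left with library size only (0.8% of all genes) and with the GC trend removed (2.43%). KRT78 alone was left with at least 10 counts in every library (1.1%), a filter that removes KRT3 for its 6 counts in library A.

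KRT3, a type II keratin best known from corneal epithelium, came closest to KRT13. Its counts were 66, 46 and 52 in sh-NC and 6, 17 and 20 in shRBM10, with no overlap. The normalized mean went from 56.1 ± 8.44 to 13.8 ± 6.79, a log2 fold change of −2.01 ± 0.42 SE (edgeR adjusted p = 0.121). It was −2.0 without sh-NC replicate 2 and −1.77 with the GC trend removed. KRT78, a type II keratin of stratified epithelium, went from 61.6 ± 29 to 28.4 ± 8.4 (log2 fold change −1.09 ± 0.41 SE, edgeR adjusted p = 0.172). Its log2 fold change was −0.73 without sh-NC replicate 2 and −0.91 with the GC trend removed. KRT6A, which pairs with KRT16 and KRT17 in injured epidermis, went from 343.9 ± 87.8 to 171.1 ± 59.8 (−1.0 ± 0.34 SE, edgeR adjusted p = 0.158), although its near-identical copies KRT6B and KRT6C make its counts uncertain. KRT6A sat on the fold limit, and was −0.86 without sh-NC replicate 2, −0.83 with the GC trend removed and −0.82 without library A.

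Among the other keratins with at least 50 normalized counts, KRT10, a keratin of the suprabasal epidermis, went from 586.4 ± 14.3 to 402.2 ± 39.3 without overlap (log2 fold change −0.54 ± 0.23 SE, edgeR adjusted p = 0.192). It was −0.63 without sh-NC replicate 2 and −0.48 with the GC trend removed. KRT16 (1799 ± 704.1 and 1704 ± 441.7) and KRT6B (99.9 ± 2.87 and 98.1 ± 16.6) overlapped. With an adjusted p under 0.05 and the same fold limit, edgeR called 0 of these 10 keratins (0.0158% of all genes). The adjusted count was 0 in limma-voom and 1, KRT3, in DESeq2, which called 4.64% of all genes.

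**Figure D4:**
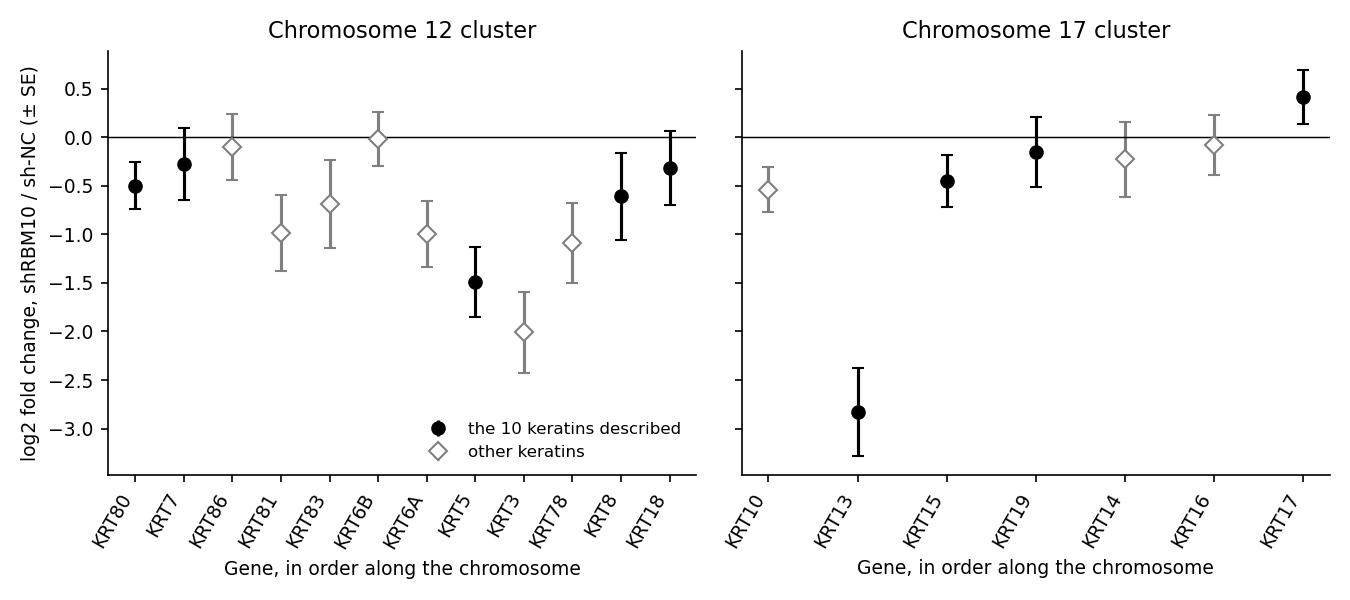
Log2 fold change (shRBM10 over sh-NC) ± SE of the keratins that could be tested, in gene order along the chromosome 12 and chromosome 17 clusters, with the members as filled circles and other keratins as open diamonds. KRT13 at −2.83 lies beside KRT15 at −0.45 and KRT19 at −0.15, and KRT5 at −1.49 lies between KRT6A at −1.0 and KRT3 at −2.01.

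Neighbours in a cluster had like values in some stretches and unlike values in others. KRT13 differed by −2.83 on the log2 scale, while KRT15 and KRT19, the next genes on the same strand, had −0.45 and −0.15. On chromosome 12, KRT5 (−1.49) lay among KRT6A (−1.0), KRT3 (−2.01) and KRT78 (−1.09). KRT6B, the next tested gene beyond KRT6A, had −0.02. Further along, KRT83 had −0.69, KRT81 −0.99 and KRT86 −0.10. KRT8 and KRT18 at the other end of the cluster had −0.61 and −0.32.

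Genes around the keratin cytoskeleton showed no common direction. From 5 lists (desmosome and filament linkers, keratin-binding and turnover proteins, squamous differentiation, epithelial transcription factors and other intermediate filaments), 84 genes were in the table and 69 were tested. Of these, 36 had a higher and 33 a lower value in shRBM10, and the median of their log2 fold changes was 0.02. In edgeR none passed the adjusted threshold. An unadjusted p under 0.05 with an absolute log2 fold change over 1 was reached by 5, or 7.25% of the 69 against 11.6% of all genes tested. Of these 5, 4 were higher, where 10.1% of all genes were, and 1 was lower. DESeq2 called 2 of the 69, DSG2 and EHF, and limma-voom 0.

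Keratin filaments attach to the cell membrane at desmosomes. In the list of desmosome and linker genes 8 of 16 had a higher and 8 a lower value. Those past both the unadjusted threshold and the fold limit were DSG2 and DSC2, desmosomal cadherins. They make up 12.5% of the list, near the 11.6% of all genes tested. DSG2 went from 833.8 ± 466.2 to 2494 ± 1144 (log2 fold change 1.58 ± 0.51 SE, edgeR adjusted p = 0.156) and DSC2 from 129.1 ± 70.7 to 327.8 ± 150.3 (1.33 ± 0.51 SE, edgeR adjusted p = 0.175). Both were lowest in sh-NC replicate 2. Without it their log2 fold changes were 1.09 and 0.86, and with the GC trend removed 0.94 and 0.61, neither past the fold limit. Of the 13 genes that bind, modify or cleave keratins, 7 had a higher and 6 a lower value, and 0 were past the unadjusted threshold with its fold limit.

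KRT13 and KRT4 accompany the differentiation of stratified mucosa, so the genes of that programme were set beside them. Of 13 squamous differentiation genes tested, 8 had a higher and 5 a lower value, with a median of 0.09, and the one past both limits was CSTA, an epithelial protease inhibitor, at 204 ± 147.1 and 96 ± 9.81 (log2 fold change −1.08 ± 0.46 SE, edgeR adjusted p = 0.194). Its log2 fold change was −0.40 without sh-NC replicate 2 and −1.83 with the GC trend removed. Of 16 epithelial transcription factors, 7 had a higher and 9 a lower value, and EHF, an epithelial ETS factor, went from 347.4 ± 171.3 to 968.9 ± 467.5 (1.47 ± 0.48 SE, edgeR adjusted p = 0.156). EHF was 1.03 without sh-NC replicate 2 and 0.84, no longer past the limits, with the GC trend removed. TP63, the master regulator of basal epithelium and of KRT5 and KRT14, had a log2 fold change of 0.95 ± 0.32 SE (edgeR adjusted p = 0.162). It was 0.71 and 0.37 in those settings. TP63 was named after its value was seen, and its part in the KRT5 value was not tested.

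Other intermediate filament genes were divided, 6 higher and 5 lower of 11 tested. SYNM, a filament protein that links the others, went from 67.5 ± 43.2 to 156.8 ± 34.3 (log2 fold change 1.20 ± 0.51 SE, edgeR adjusted p = 0.194), and it was 0.68 without sh-NC replicate 2 and 1.27 with the GC trend removed. Vimentin stood at 32.1 ± 1.92 and 38.2 ± 11.2 normalized counts, within the spread. The summed normalized count of the 6 mesenchymal markers was 430.4 to 578.2 in sh-NC and 669.7 to 741.8 in shRBM10, most of it CDH2, and that of the 6 epithelial and lung markers 7874 to 8991 and 8451 to 10430. The part of these markers in the keratin values was not tested.

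**Figure D5:**
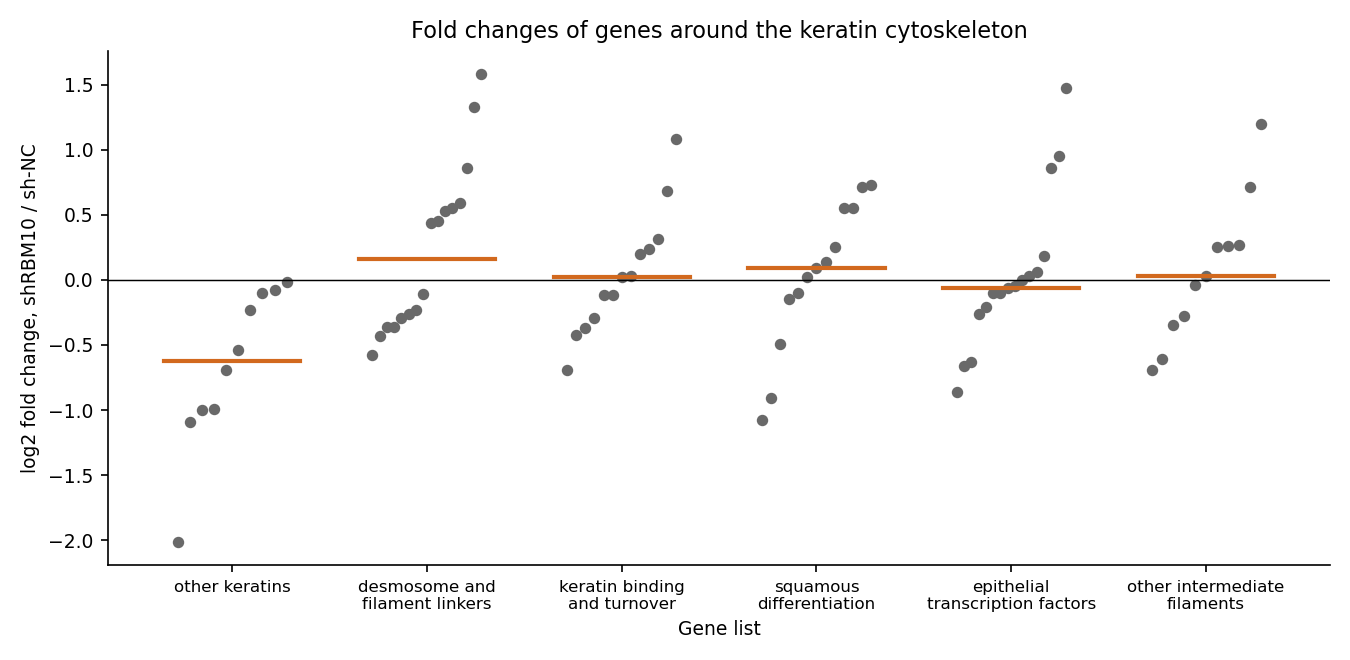
Log2 fold change (shRBM10 over sh-NC) of each tested gene (points, sorted within a list) for the other keratins and 5 lists around the keratin cytoskeleton, with the median of each list as a line. The other keratins have a median of −0.62 and no point above 0, whereas the medians of the 5 lists lie between −0.06 and 0.16.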

How the data were processed

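PC9 cells were profiled by bulk RNA-seq at BGI-Tech, 3 sh-NC and 3 shRBM10 samples. The authors deposited estimated counts and TPM per gene and estimated counts per transcript. The submitters' processing notes name hg38, and aligner, counter, annotation and kit per library are not given in the sources used here. Whole numbers made up 87.5% of gene counts. Unused columns of single samples numbered 14 (genes) and 18 (transcripts), and 8 of group means in each. Counts were rounded. Of 16306 genes, 12620 passed filterByExpr and were fitted over all 6 libraries, with no covariate, by TMM and the quasi-likelihood test of edgeR 4.0.16 (limma 3.58.1, R 4.3.3), after tests on simulated data. SE is the log2 fold change over the square root of F. Normalized counts are TMM-scaled to the mean library of 18224557. GENCODE v29 gave positions, GC content (97.8% of genes tested) and the transcripts searched for shared windows. Sequences of the keratins are not reported here. Alternatives were DESeq2 1.42.0, limma-voom, RLE, upper quartile, library size only, other filters, GC trend removal (loess span 0.3) and leaving out each library. Named genes are all members, other keratins and list genes past an unadjusted p of 0.05 and absolute log2 fold change of 1 or, for keratins, with at least 50 normalized counts, and the 5 genes nearest KRT13 and KRT8. Members and lists were chosen with earlier results of these data known.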

Additional observations from a re-analysis of the deposited data

How the results depend on the processing

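Of the 9 members tested, 1 (KRT17) was higher in shRBM10, against 2 when scaled by library size only (KRT19 added), 3 with the GC trend removed (KRT7 and KRT19 added) and 1 to 2 with a library left out (2 without sh-NC replicate 2). Other keratins past the unadjusted threshold numbered 3, and 1 with library size only, with at least 10 counts in every library or with the GC trend removed. Leaving out a library gave 2 to 5, with 5 without sh-NC replicate 3 or library C. In those 2 settings 2.63% and 3.3% of all genes passed lower in shRBM10, against 1.53% with all libraries. The count was 2 without sh-NC replicate 2 or library A (1.54% and 1.18% of all genes). Listed partner genes past it numbered 5, and 3 with upper quartile scaling or library size only. Leaving out a library gave 2 to 9 (8 and 9 without sh-NC replicate 1 or 3, 3 without sh-NC replicate 2 or library B, 2 without library A). The number of all genes past it moved as well. It was 1272 higher and 193 lower of 12620 with all libraries. Without sh-NC replicate 3 it was 1565 and 335 of 12736, and without library A 424 and 150 of 12716. KRT16 turned to 0.12 with library size only and 0.20 with the GC trend removed (−0.25 to 0.21 with an sh-NC replicate left out, 0.04 without library A, 0.01 without library B and −0.34 without library C), and KRT6B to 0.02 with upper quartile, 0.10 with library size only and 0.18 with the GC trend removed (0.11 without library A, −0.12 to −0.04 without any other library). The causes were not tested. Library size only moved the median log2 fold change of all genes from 0.03 to 0.16. Removing the GC trend moved the share of higher genes among those past the unadjusted threshold from 86.8% to 47.6%, and RBM10 to −0.98. KRT13, KRT5 and KRT3 have no value with at least 10 counts in every library. Adjusted calls over all genes were 2, against 23 without sh-NC replicate 2, 5 without sh-NC replicate 1, 0 without sh-NC replicate 3 or any shRBM10 library, 31 with no filter, 5 with the GC trend removed, 0 with library size only and 574 with DESeq2. No paired analysis was possible because the columns of shRBM10 libraries B and C carry no replicate number. At the depth of these libraries KRT4, and the transcript use of KRT13, could not be compared.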
